A study of Mus musculus with 16 samples.

Results

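Mcm2, Mcm3, Mcm4, Mcm5, Mcm6 and Mcm7 encode the subunits of the MCM2-7 complex, the replicative DNA helicase, and were taken by gene symbol from mouse heart RNA sequencing. All 6 genes were found in both deposited tables, among 14138 genes in the first and 17831 in the second, and all 6 passed the filter on low counts in both. In cycling cells the origin recognition complex, Cdc6 and Cdt1 load MCM2-7 rings onto DNA before S phase, a step known as licensing. The kinases Cdc7 and Cdk2, with Cdc45 and the GINS complex, then turn the loaded rings into active helicases. MCM genes are textbook targets of E2F transcription factors, which act at the passage into S phase. Most adult cardiomyocytes have left the cell cycle, and the level of these transcripts in adult heart is low.

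The first table holds 5 CPT2H-KO hearts and 5 wild type hearts, and the second holds 3 CPT2/USP30 double KO hearts and 3 CPT2 single KO hearts. CPT2 (carnitine palmitoyltransferase 2) is an inner mitochondrial membrane enzyme of long-chain fatty acid oxidation, and USP30 is a mitochondrial deubiquitinase that opposes mitophagy. The CPT2H-KO and single KO hearts lacked Cpt2 in cardiomyocytes, and both carry the genotype label CPT2H-KO. The double KO hearts, labelled CPT2/USP30H-KO, carried both deletions, so the Cpt2 deletion was shared by both groups of the second table. The design text gives the USP30H-KO line as Myh6-Cre/USP30fl/fl, a cross that deletes in cardiomyocytes, and the driver of the Cpt2 deletion only as cardiomyocyte-specific. The wild type hearts are labelled WT, with no statement of whether they carried Cre or floxed alleles. Age and sex of the animals are not given in the labels. Other cell types of the heart were not targeted.

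Library totals ran from 54674422 to 132762776 counts in the first table, and from 11067969 to 13532716 counts in the second. The MCM genes held 142 to 1188 counts each per library in the first table. Cpt2 averaged 40.4 ± 5.72 CPM (counts scaled to a common library size) in CPT2H-KO hearts and 77.9 ± 15.2 CPM in wild type hearts (SD, n = 5 each). Usp30 averaged 9.39 ± 1.68 CPM in double KO hearts and 21.0 ± 2.23 CPM in single KO hearts (SD, n = 3 each). The 6 ventricular cardiomyocyte markers summed to 16050 to 20297 CPM in CPT2H-KO hearts and 19316 to 21427 CPM in wild type hearts. Of the 6, 4 (Tnni3, Actc1, Myl2 and Tnnt2) were called lower in CPT2H-KO hearts, 3 of them without overlap, and the median log2 fold change was -0.43. Some libraries stood apart in tissue content. The atrial myosin light chain Myl7 was over 10 CPM in CPT2H-KO replicates 1 and 5 and in all 5 wild type hearts, and in double KO replicates 2 and 3 but no single KO heart. Y-linked transcripts were below 1 CPM in CPT2H-KO replicates 1 and 3, wild type replicate 1, all 3 double KO hearts and single KO replicate 3. The tables list different gene sets, so levels were compared within a table only.

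The genes lie on several chromosomes. On GRCm38 with the GENCODE M21 annotation, Mcm3 (chr1:20802968-20820312) and Mcm6 (chr1:128331590-128359664) are on chromosome 1, Mcm7 (chr5:138164583-138172422) on chromosome 5 and Mcm2 (chr6:88883474-88898780) on chromosome 6, all on the minus strand. Mcm5 (chr8:75109569-75128439) is on the plus strand of chromosome 8 and Mcm4 (chr16:15623897-15637400) on the minus strand of chromosome 16. Mcm7 overlaps neighbours on the opposite strand, Cops6 by 64 bases and Ap4m1 by 421 bases, and hosts the microRNA genes Mir25, Mir93 and Mir106b within the gene. No source used here states whether counting respected the strand, so reads of Mcm7 and of these neighbours may not be fully separated.

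Promoter windows of 300 bases, from 250 before to 50 after each RefSeq transcription start on GRCm38.p6, are shown because the genes rose together in CPT2H-KO hearts and are classical E2F targets. Windows were matched by symbol for 5 of the 6 genes, and for Mcm4 none is shown. Capitals mark the words TTTCCCGC, TTTGGCGC, TTTCGCGC and TTTGCCGC, the 8-letter forms of the E2F site that were searched on both strands; neighbouring words can overlap and then print as 1 longer run. Each window is written in the direction of transcription.
Mcm3, chr1:20820263-20820562, minus strand: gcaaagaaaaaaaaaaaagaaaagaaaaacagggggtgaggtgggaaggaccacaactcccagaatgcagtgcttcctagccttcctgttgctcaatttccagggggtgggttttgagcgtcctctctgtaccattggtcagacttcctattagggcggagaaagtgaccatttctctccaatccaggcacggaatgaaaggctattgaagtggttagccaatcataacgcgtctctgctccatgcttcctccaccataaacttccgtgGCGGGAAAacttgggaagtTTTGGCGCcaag
Mcm6, chr1:128359656-128359955, minus strand: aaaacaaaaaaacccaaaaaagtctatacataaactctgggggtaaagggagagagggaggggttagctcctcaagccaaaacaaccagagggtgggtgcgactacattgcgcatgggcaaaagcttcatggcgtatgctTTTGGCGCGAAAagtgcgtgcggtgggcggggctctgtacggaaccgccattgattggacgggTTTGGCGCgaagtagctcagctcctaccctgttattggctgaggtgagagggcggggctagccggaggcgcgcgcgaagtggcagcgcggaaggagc
Mcm7, chr5:138171834-138172133, minus strand: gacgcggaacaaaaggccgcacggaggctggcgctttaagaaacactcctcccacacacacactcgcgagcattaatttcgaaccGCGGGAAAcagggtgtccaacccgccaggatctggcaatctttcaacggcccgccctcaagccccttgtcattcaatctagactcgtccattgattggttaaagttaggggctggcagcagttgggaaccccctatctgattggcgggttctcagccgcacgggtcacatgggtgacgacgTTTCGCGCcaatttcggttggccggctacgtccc
Mcm5, chr8:75109259-75109558, plus strand: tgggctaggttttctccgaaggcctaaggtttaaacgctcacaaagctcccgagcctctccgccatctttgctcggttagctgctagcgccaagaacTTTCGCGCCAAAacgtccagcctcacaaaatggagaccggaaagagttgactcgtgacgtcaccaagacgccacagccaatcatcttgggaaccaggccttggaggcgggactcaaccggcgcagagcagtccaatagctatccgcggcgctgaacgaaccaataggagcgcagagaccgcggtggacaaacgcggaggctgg
Mcm2, chr6:88898731-88899030, minus strand: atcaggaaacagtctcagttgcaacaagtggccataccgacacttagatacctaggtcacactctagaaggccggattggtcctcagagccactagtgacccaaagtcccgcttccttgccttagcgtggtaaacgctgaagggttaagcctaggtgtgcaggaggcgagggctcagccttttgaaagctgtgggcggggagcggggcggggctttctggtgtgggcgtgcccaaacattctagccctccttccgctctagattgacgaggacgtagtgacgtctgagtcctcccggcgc

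The E2F words were present in 4 of the 5 genes. Mcm6 held 3, beginning 110, 106 and 47 bases before the start, and the leading pair overlap. Mcm5 held an overlapping pair 153 and 149 bases before the start. Mcm3 held 2, both after the start, and Mcm7 held 2, of which 1 began 165 bases before the start and the other lay after it. The Mcm2 window held none. A separate downstream Mcm7 start (chr5:138171217-138171516) held none of the 8-letter words. Among all 32851 RefSeq windows of this length, 2.26% held at least 1 of these words, which is 2.61% of the 27025 genes with a window. With the first T dropped, the 7-letter words occurred in 9.57% of windows and 10.9% of genes, and still in 4 of the 5 MCM genes. The CCAAT box was present in all 5 genes, against 41.1% of all genes (37.4% of windows), and the GC box GGGCGG in 4 of 5, against 38.2% of all genes (35.7% of windows). These are letter matches, with no measurement of binding.

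**Figure D1:**
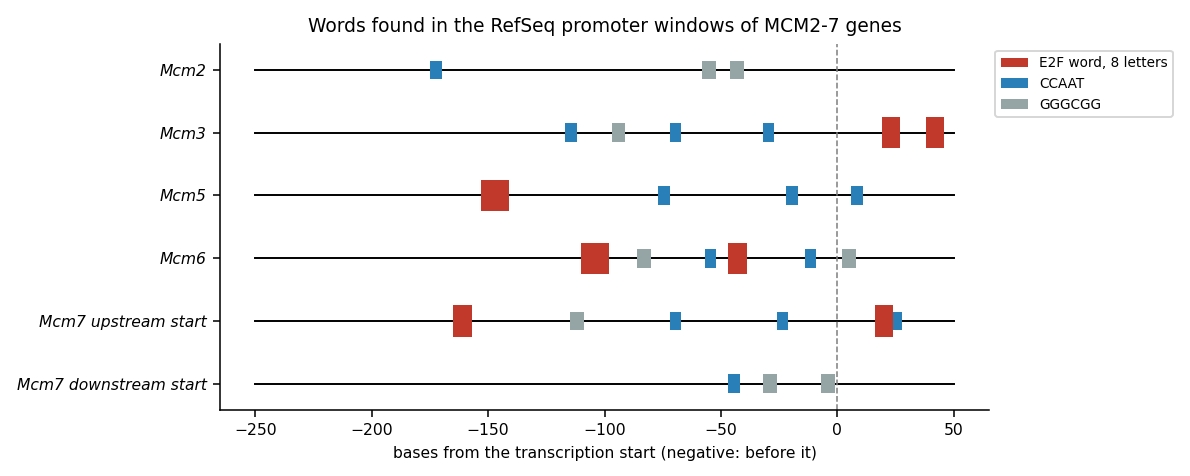
Position of each word in the promoter windows of 5 MCM genes, in bases from the RefSeq transcription start (x axis), with 1 line per window and Mcm7 shown at both starts. Red boxes are 8-letter E2F words, blue boxes CCAAT and grey boxes GGGCGG; overlapping words merge into wider boxes, and Mcm2 has no red box.

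All 6 MCM genes were higher in CPT2H-KO hearts than in wild type hearts, by log2 fold changes of 0.32 to 1.85 and a median of 0.88. Each passed edgeR's quasi-likelihood test at an adjusted p of 0.05, where 33.7% of the 14123 genes tested were called in either direction and 16.7% were called higher. Of these calls 2360 were higher and 2398 lower, against 827 higher and 4832 lower when libraries were scaled by their totals alone. In 5 of the 6, every CPT2H-KO heart was above every wild type heart, against 11.5% of all tested genes with such a separation. Bulk RNA cannot tell more cells of a type from more RNA per cell. The sizes differed widely among the 6 genes, from 1.25-fold for Mcm4 to 3.62-fold for Mcm2.

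Mcm2 and Mcm5 form the gate through which DNA enters the ring, and they had the largest rises. Mcm2 was at 12.5, 9.43, 13.1, 16.1 and 7.77 CPM in CPT2H-KO replicates 1 to 5, against 3.48, 3.19, 3.12, 3.38 and 3.09 CPM in wild type replicates 1 to 5. The wild type hearts were nearly identical, and the lowest CPT2H-KO heart stood well above all of them. This is a log2 fold change of 1.85 (SE 0.17, edgeR adjusted p = 3.53e-05). Mcm5 was at 6.82, 5.89, 6.18, 8.12 and 3.86 CPM in CPT2H-KO hearts, against 2.47, 1.69, 1.57, 2.28 and 2.59 CPM in wild type hearts. Again the groups did not overlap, and CPT2H-KO replicates 4 and 5 were the highest and lowest of their group, as for Mcm2. Mcm5 thus had a log2 fold change of 1.54 (SE 0.20, edgeR adjusted p = 3.59e-04).

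Mcm3, the subunit that contacts the origin recognition complex and Cdc6 during loading, was at 7.07, 5.88, 4.70, 5.90 and 4.10 CPM in CPT2H-KO hearts, against 2.47, 2.57, 2.19, 3.02 and 3.27 CPM in wild type hearts. Every CPT2H-KO value was above every wild type value, with replicate 1 the highest. Its log2 fold change came to 1.03 (SE 0.16, edgeR adjusted p = 8.78e-04).

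Mcm4, Mcm6 and Mcm7 form the core that unwinds DNA in vitro, and they had the smallest rises. Mcm6 was at 10.4, 9.68, 8.18, 11.2 and 6.83 CPM in CPT2H-KO hearts, against 5.73, 6.14, 4.34, 5.66 and 6.20 CPM in wild type hearts. The groups did not overlap, although CPT2H-KO replicate 5 lay close to the highest wild type heart, and the log2 fold change came to 0.72 (SE 0.14, edgeR adjusted p = 0.00325). Mcm7 was at 6.70, 5.78, 6.75, 8.16 and 4.23 CPM in CPT2H-KO hearts, against 4.75, 3.33, 3.73, 4.71 and 4.03 CPM in wild type hearts. Here the groups overlapped through CPT2H-KO replicate 5, and the log2 fold change came to 0.62 (SE 0.17, edgeR adjusted p = 0.0154). Its overlapping neighbour Cops6, a COP9 signalosome subunit, changed by 0.49 (SE 0.13, edgeR adjusted p = 0.0129), and Ap4m1, an adaptor complex subunit, by -0.23 (SE 0.08, edgeR adjusted p = 0.0434).

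Mcm4 moved least. It was at 4.88, 6.02, 5.70, 5.19 and 4.92 CPM in CPT2H-KO hearts, against 4.41, 4.15, 3.84, 4.11 and 4.87 CPM in wild type hearts. The groups touch, with CPT2H-KO replicate 1 and wild type replicate 5 nearly equal. Its log2 fold change came to 0.32 (SE 0.09, edgeR adjusted p = 0.0202). Prkdc, a DNA repair kinase gene transcribed away from Mcm4 across a gap of 465 bases, had a log2 fold change of 0.22 (SE 0.07, edgeR adjusted p = 0.0261).

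The calls of Mcm2, Mcm3 and Mcm5 held in all 20 alternative fits. Mcm4, Mcm6 and Mcm7 were no longer called when the mean log2 CPM of the 3 atrial markers was added as a covariate (log2 fold changes 0.19, 0.54 and 0.39, edgeR adjusted p = 0.217, 0.0505 and 0.201). The same 3 lost their calls with a fibroblast marker covariate built in that way (log2 fold changes 0.36, 0.49 and 0.41, edgeR adjusted p = 0.116, 0.126 and 0.269). Over all genes, calls fell from 4758 to 3103 with the atrial covariate and to 1488 with the fibroblast covariate. The log2 fold change of Mcm4 was not smaller with the fibroblast covariate than in the main fit (0.32). Mcm4 was also not called without wild type replicate 3, or with replicate number added as a block (log2 fold change 0.32, edgeR adjusted p = 0.0624). Scaling by library totals alone lowers log2 fold changes by a median of 0.26 over all genes, and there Mcm4 and Mcm7 came to 0.07 and 0.34 and were not called (edgeR adjusted p = 0.723 and 0.144). When only the CPT2H-KO hearts with atrial transcripts, replicates 1 and 5, were set against wild type, the log2 fold changes were 1.64 for Mcm2, 1.04 for Mcm3, 1.33 for Mcm5, 0.61 for Mcm6, 0.40 for Mcm7 and 0.20 for Mcm4, and Mcm7 and Mcm4 were not called.

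Sums of fibroblast and mural cell markers differed between these hearts, beside the lower ventricular cardiomyocyte markers given above, while endothelial and macrophage sums overlapped. The 7 fibroblast markers summed to 617 to 1111 CPM in CPT2H-KO hearts and 461 to 616 CPM in wild type hearts, without overlap, and 2 of 7 (Col1a1 and Col1a2) were called higher. The other 5 were not called, and 2 of the 7 had log2 fold changes below 0. The 5 mural cell markers summed to 372 to 432 CPM in CPT2H-KO hearts and 506 to 589 CPM in wild type hearts. Of these 5, 2 (Acta2 and Rgs5) were called lower, and 1 had a log2 fold change above 0. The 6 endothelial markers summed to 307 to 397 CPM in CPT2H-KO hearts and 293 to 382 CPM in wild type hearts, and the 7 macrophage markers to 83.3 to 118 CPM in CPT2H-KO hearts and 98.3 to 131 CPM in wild type hearts. Their part in the MCM differences was not tested beyond the covariate fits above.

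**Figure D2:**
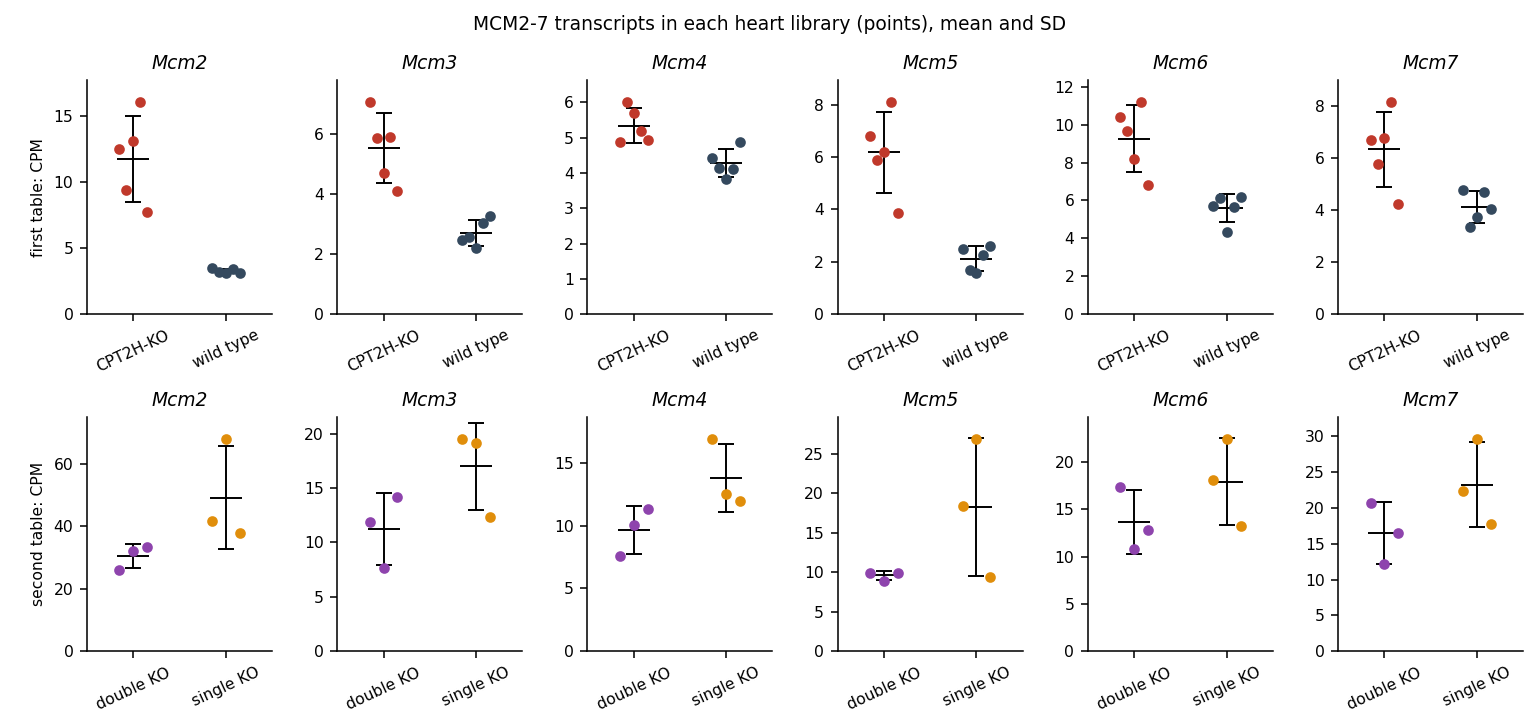
CPM (y axes, linear from 0) of the 6 MCM genes in every library, with CPT2H-KO left of wild type in the upper row and double KO left of single KO in the lower row; points are libraries, horizontal lines means and bars 1 SD. In the upper row 5 of the 6 genes have no overlap between groups, while in the lower row only Mcm2 and Mcm4 have none.

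Because the 6 subunits are present once each in a ring, their relative transcript levels were also compared, as CPM per kilobase of annotated exons. In wild type hearts Mcm6 (1.20 ± 0.161 CPM per kb) and Mcm4 (1.19 ± 0.109) were highest and did not differ beyond their spread, followed by Mcm7 (0.929 ± 0.139), Mcm3 (0.721 ± 0.116), Mcm5 (0.531 ± 0.116) and Mcm2 (0.467 ± 0.0243; SD, n = 5). Every neighbouring pair in this order had overlapping ranges, but the genes were measured in the same libraries. Within each of the 5 wild type hearts, Mcm4 was above Mcm7, Mcm7 above Mcm3 and Mcm3 above Mcm5. The order of Mcm6 and Mcm4, and that of Mcm5 and Mcm2, varied among these hearts. In CPT2H-KO hearts Mcm6 was again highest at 1.98 ± 0.378 CPM per kb, and Mcm2 came next at 1.69 ± 0.469 (SD, n = 5). Mcm5, Mcm4, Mcm3 and Mcm7 then lay between 1.43 and 1.55 CPM per kb, and no neighbours in the CPT2H-KO order were separated by more than their spread. Within libraries, no neighbouring pair kept that order in all 5 CPT2H-KO hearts. This order rests on the merged exon lengths, of which that of Mcm2 (6956 bases) is the longest.

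Expressed as a share of the summed level per kb, Mcm2 made up 17.4 ± 2.39% in CPT2H-KO hearts and 9.34 ± 0.909% in wild type hearts (SD, n = 5 each). Mcm5 made up 15.9 ± 1.32% in CPT2H-KO hearts and 10.4 ± 1.34% in wild type hearts. Mcm4 went the other way, with 15.9 ± 3.12% in CPT2H-KO hearts and 23.7 ± 1.31% in wild type hearts. For these 3 genes the shares did not overlap between groups, and the shares of a library sum to 100%, so they are not independent of each other. Mcm6 and Mcm7 had lower mean shares in CPT2H-KO hearts (20.6% and 14.8%) than in wild type hearts (23.8% and 18.4%), and Mcm3 was at 15.4% in CPT2H-KO hearts and 14.3% in wild type hearts. Without division by length the shares were 26.3% in CPT2H-KO hearts and 14.8% in wild type hearts for Mcm2, 13.8% and 9.52% for Mcm5 in CPT2H-KO and wild type hearts, and 12.4% and 19.4% for Mcm4 in CPT2H-KO and wild type hearts, again without overlap. The differences in share were not tested. The summed level itself was 9.62 ± 1.72 CPM per kb in CPT2H-KO hearts and 5.04 ± 0.516 in wild type hearts.

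**Figure D3:**
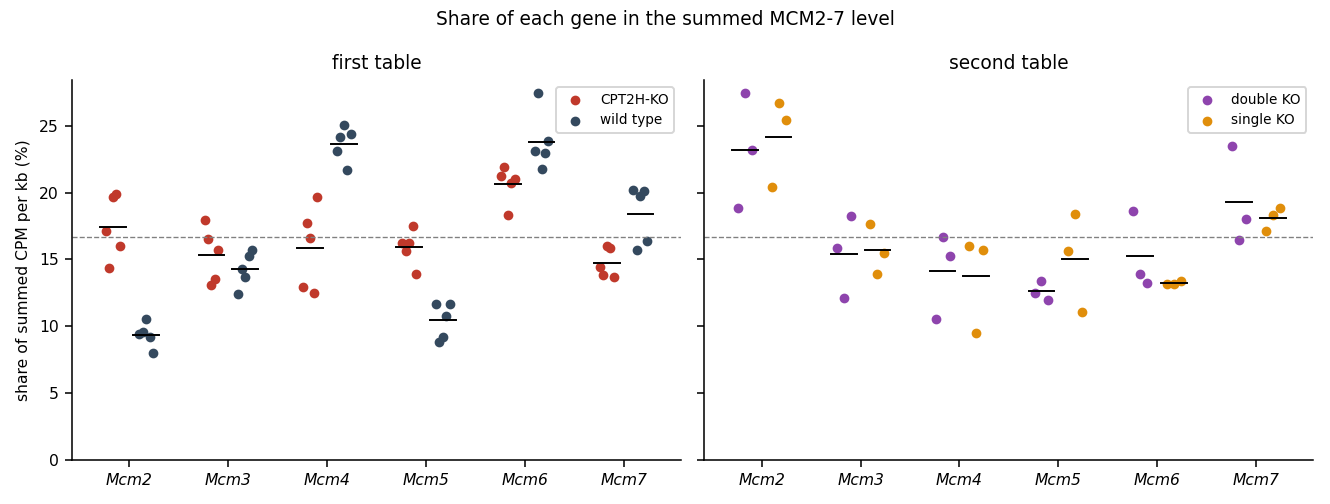
Share of each MCM gene in the summed CPM per kb of all 6 (y axis, percent), in every library of the first table (left) and the second (right); points are libraries, short lines group means and the dashed line an equal share. In the first table the CPT2H-KO hearts lie above wild type for Mcm2 and Mcm5 and below it for Mcm4, without overlap; where a gene lies relative to the dashed line depends on the exon lengths used.

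The other genes of DNA replication did not move as a block. Of the loading factors, 1 of 9 tested was called higher, 2 lower and 6 neither, with a median log2 fold change of -0.18. That share of calls was near the 33.7% of all genes called in either direction. The loading factor called higher was Cdt1, which brings MCM2-7 to the origin. Cdt1 was at 2.04, 1.44, 1.28, 1.64 and 1.05 CPM in CPT2H-KO hearts, against 0.672, 0.393, 0.540, 0.688 and 0.628 CPM in wild type hearts, without overlap (log2 fold change 1.34, SE 0.22, edgeR adjusted p = 0.00115). Orc5, a subunit of the origin recognition complex, fell by 0.42 on the log2 scale (SE 0.10, edgeR adjusted p = 0.00872). Mcmbp, which binds and unloads MCM complexes, fell by 0.18 (SE 0.06, edgeR adjusted p = 0.0253).

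The MCM relatives outside the ring were all called, 3 of 3 tested and higher, with a median log2 fold change of 0.88. Over all genes 16.7% were called higher. Mcm9, which acts in DNA repair, averaged 4.64 ± 1.08 CPM in CPT2H-KO hearts and 2.52 ± 0.186 CPM in wild type hearts (SD, n = 5 each; log2 fold change 0.88, SE 0.14, edgeR adjusted p = 0.00122). The calls of its partner Mcm8 (log2 fold change 0.39) and of Mcm10, an origin-firing factor named with the family but not a helicase subunit (1.31, SE 0.43), were lost in 15 and 13 of 20 alternative fits. Mcm10 was at 0.318 to 0.943 CPM in CPT2H-KO hearts and 0.125 to 0.496 CPM in wild type hearts, so few reads stand behind it.

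Of the genes that activate the loaded helicase, 4 of 12 were called higher and 0 lower, with a median log2 fold change of 0.43, beside the 16.7% of all genes called higher. Scaled by library totals alone, the same list had 0 called higher and 1 lower, with a median of 0.18. Beside the kinase subunit Dbf4 they were Cdc45 (0.64, SE 0.16), the firing factor Mtbp (0.53, SE 0.14) and the GINS subunit Gins2 (1.08, SE 0.32), with edgeR adjusted p of 0.0102, 0.0160 and 0.0231. At the replication fork, 6 of 30 were called higher and 0 lower, with a median of only 0.13, a share of calls near that of all genes called higher (16.7%). With library totals alone 3 were called higher and 4 lower. Lig1, the ligase that joins Okazaki fragments, rose by a log2 fold change of 1.29 (SE 0.19, edgeR adjusted p = 6.82e-04). Pole, the catalytic subunit of the leading-strand polymerase, rose by 1.15 (SE 0.21, edgeR adjusted p = 0.00200), and Chaf1a, a histone chaperone subunit, by 1.43 (SE 0.27, edgeR adjusted p = 0.00274). Pcna, the sliding clamp and itself a classical E2F target, was named after its values were seen: it averaged 11.7 ± 1.60 CPM in CPT2H-KO hearts and 12.0 ± 0.436 CPM in wild type hearts, and was not called (log2 fold change -0.04, edgeR adjusted p = 0.788).

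Among the 7 genes of deoxynucleotide supply, 2 were called higher and 1 lower, beside the 33.7% of all genes called in either direction. The ribonucleotide reductase subunits Rrm1 and Rrm2 changed by 0.57 (SE 0.11, edgeR adjusted p = 0.00335) and 1.35 (SE 0.41, edgeR adjusted p = 0.0260). The dUTPase gene Dut fell by 0.66 on the log2 scale (SE 0.13, edgeR adjusted p = 0.00334). The call of Rrm2 was lost in 9 of 20 alternatives, among them the removal of CPT2H-KO replicate 2 or 4.

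Of 26 genes of E2F, RB and G1/S control, 7 were called higher, 3 lower and 16 neither, with a median log2 fold change of 0.12, a share of calls near the 33.7% of all genes called. With library totals alone 5 were called higher and 6 lower. Ccnd2, which encodes the G1 cyclin D2, averaged 189 ± 43.6 CPM in CPT2H-KO hearts and 40.6 ± 6.69 CPM in wild type hearts (SD, n = 5 each; log2 fold change 2.22, SE 0.16, edgeR adjusted p = 1.08e-05). The activator E2f3 changed by 0.94 (SE 0.12, edgeR adjusted p = 2.71e-04) and Cdk6, a kinase partner of D-type cyclins, by 0.64 (SE 0.09, edgeR adjusted p = 4.43e-04). E2f1 and Cdkn1a were chosen after their values were seen. The genes with values given here were all called higher. The 3 called lower were among Cdkn1c, Cdkn1b, E2f6, Cdc25a and Rbl1, and the lowest log2 fold change of the list was -0.78. E2f1, an activator of S-phase genes, was at 1.30, 1.31, 1.22, 2.37 and 0.551 CPM in CPT2H-KO hearts, against 0.410, 0.202, 0.235, 0.276 and 0.330 CPM in wild type hearts (log2 fold change 2.22, SE 0.36, edgeR adjusted p = 0.00109). As for most MCM genes, replicate 4 was highest and replicate 5 lowest of the CPT2H-KO hearts. Cdkn1a, which encodes the cyclin-dependent kinase inhibitor p21, averaged 28.7 ± 16.3 CPM in CPT2H-KO hearts and 9.28 ± 4.00 CPM in wild type hearts (log2 fold change 1.62, SE 0.40, edgeR adjusted p = 0.00981).

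Mitotic genes did not pass the test in the same way. Of 22, 21 had a log2 fold change above 0, with a median of 0.80, but only Ube2c, a subunit of the mitotic ubiquitin machinery, was called higher (1.81, SE 0.37, edgeR adjusted p = 0.00406). Ccnb1, the mitotic cyclin B1, was at 0.474 to 1.65 CPM in CPT2H-KO hearts and 0.256 to 0.826 CPM in wild type hearts and was not called (1.15, SE 0.44, edgeR adjusted p = 0.0645). Cenpf, a kinetochore protein gene, was the 1 called lower, at 0.613, 5.61, 2.03, 5.75 and 1.92 CPM in CPT2H-KO hearts, against 14.4, 18.5, 22.4, 19.5 and 15.9 CPM in wild type hearts (log2 fold change -2.50, SE 0.46, edgeR adjusted p = 0.00216). Of 45 replication-dependent histone genes tested, 0 were called higher and 6 lower, and 26 were above 0, with a median of 0.06. Over all 14123 genes tested, 16.7% were called higher and 2398 genes lower. Hist2h2be, Hist1h2bc and Hist1h4h fell by 1.24, 0.76 and 0.82 on the log2 scale (SE 0.16, 0.11 and 0.15, edgeR adjusted p = 3.39e-04, 6.32e-04 and 0.00231). Histone genes have near-identical copies, so the split of reads among them is uncertain.

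Under scaling by library totals alone, the median log2 fold change of the MCM ring genes was 0.61 and that of the mitotic genes 0.61, while the medians of the fork, the G1/S and the histone lists turned to -0.12, -0.15 and -0.14. Of the list genes named above, the calls of Ccnd2, E2f3, Cdk6, E2f1, Lig1, Pole, Hist2h2be and Hist1h2bc held in all 20 alternative fits. Those of Cdt1, Orc5, Mcm9, Chaf1a, Dut, Cenpf, Cdkn1a and Hist1h4h were lost with the fibroblast covariate alone, and those of Mtbp and Rrm1 with that covariate and with library totals. Ube2c was not called with the atrial covariate or with CPT2H-KO replicates 1 and 5 alone. Cdc45 lost its call in 4 of the 20, Gins2 and Mcmbp in 8, and of the MCM neighbours Cops6 in 3, Prkdc in 8 and Ap4m1 in 15.

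**Figure D4:**
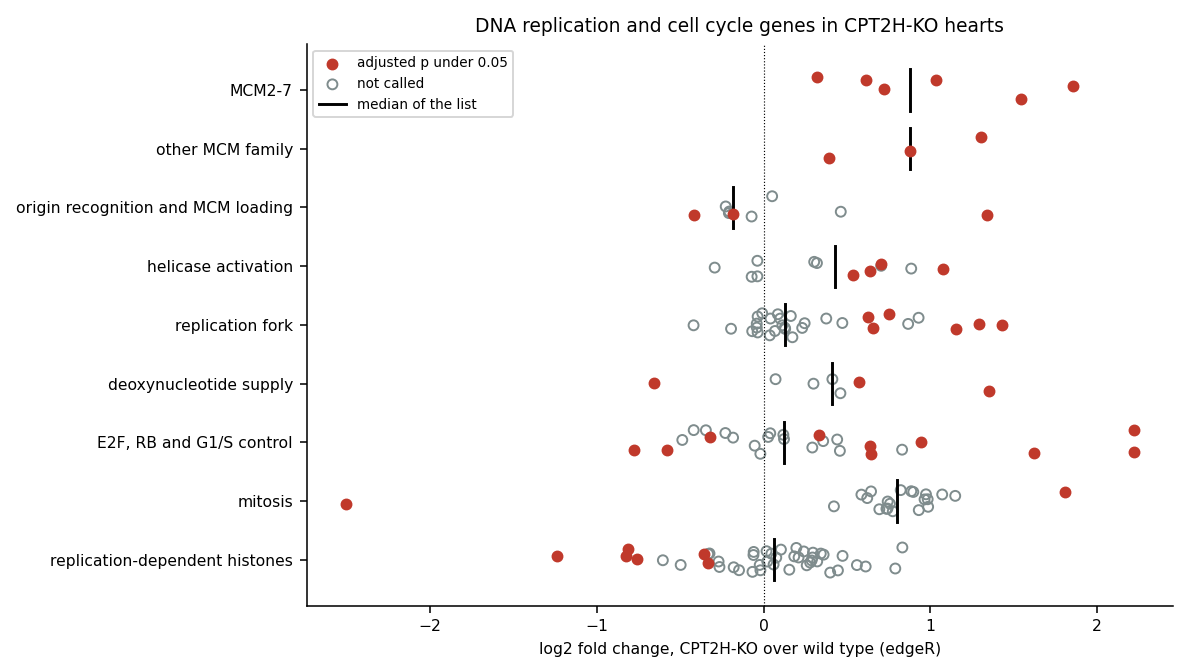
Log2 fold change of CPT2H-KO over wild type (x axis) for each tested gene of the MCM2-7 ring and of 8 lists of replication and cell cycle genes; filled red points passed an edgeR adjusted p of 0.05, open points did not, and black bars are list medians. All 6 ring genes and all 3 points of the other MCM family are filled and right of 0. Most points of every other list are open, beside 33.7% of all tested genes called in either direction.

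MCM levels and the proliferation marker Mki67 did not order the libraries alike. Mki67, chosen after its values were seen, was at 3.99, 25.6, 7.53, 20.6 and 8.57 CPM in CPT2H-KO hearts, against 5.98, 5.60, 4.46, 7.42 and 17.8 CPM in wild type hearts (log2 fold change 0.69, SE 0.51, edgeR adjusted p = 0.320). CPT2H-KO replicate 1 had the lowest Mki67 of all 10 hearts, and its summed MCM level was 10.5 CPM per kb, second in its group to replicate 4 at 11.6. Wild type replicate 5 had more Mki67 than 3 of the CPT2H-KO hearts, and its summed MCM level was 5.56 CPM per kb, below the 6.97 of the lowest CPT2H-KO heart. Within the wild type group the measures shared their extremes, with replicate 5 highest and replicate 3 lowest in both. In the second table, single KO replicate 2 was highest and double KO replicate 2 lowest in both.

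**Figure D5:**
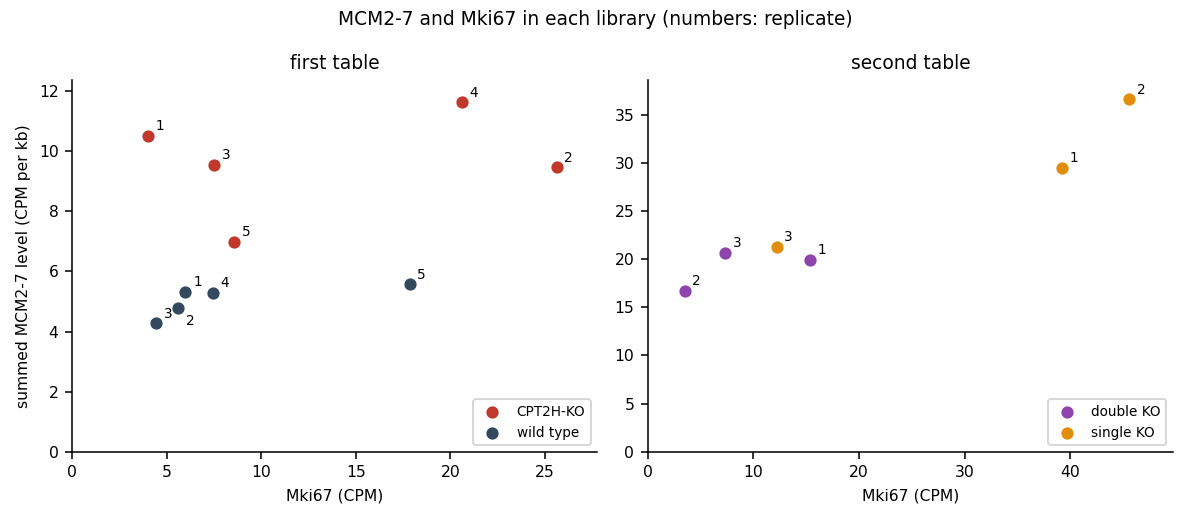
Summed CPM per kb of the 6 MCM genes (y axis) against Mki67 CPM (x axis) in every library of the first table (left) and the second (right), numbered by replicate. On the left, CPT2H-KO hearts lie above all wild type hearts at both low and high Mki67, and on the right the highest pair in both measures are single KO replicates 1 and 2.

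After removal of group means, each MCM gene was set against the mean of the other 5 across the 10 libraries of the first table and the 6 of the second. Pearson's r was 0.96 and 0.90 for Mcm5, 0.83 and 0.77 for Mcm7, 0.82 and 0.77 for Mcm6, 0.69 and 0.76 for Mcm3, and 0.71 and 0.57 for Mcm2. For Mcm4 it was only 0.29 and 0.02. These values describe 10 and 6 points that share library and depth. The 12034 genes tested in both tables were also ranked by the mean of both correlations with the mean of the 6. Over these genes, the 90th percentile of r with that mean was 0.53 in the first table and 0.71 in the second. Mcm4 lay below it in both tables, and Mcm2 in the second. Leaving out the 6 themselves and predicted genes, the most alike were Lig1 (0.91), Pcnx3 (0.90), Arhgap11a (0.90), Poldip3 (0.90), Ankrd13b (0.89) and Pole (0.88). With DESeq2 size factors the same 6 genes led, and with library totals as the only scaling 3 of them did.

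In the second table none of the 6 genes was called in double KO against single KO hearts. By edgeR's quasi-likelihood test 0% of the 12997 genes tested were called, 4 of the 6 MCM genes had an unadjusted p under 0.05 beside 7.25% of all genes, and DESeq2 and limma-voom called 0 of the 6. All 6 log2 fold changes were below 0, with a median of -0.56. Mcm2 was at 26.1, 32.05 and 33.4 CPM in double KO hearts, against 41.8, 68.0 and 37.7 CPM in single KO hearts (log2 fold change -0.69, SE 0.22, edgeR adjusted p = 0.491). Mcm4 was at 7.55, 10.0 and 11.3 CPM in double KO hearts, against 16.9, 12.5 and 12.0 CPM in single KO hearts (-0.52, SE 0.21, edgeR adjusted p = 0.643). For these 2 genes every double KO heart was below every single KO heart, as for 5.07% of all genes tested.

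The other 4 genes overlapped between groups. Mcm5 was at 9.96, 8.94 and 9.88 CPM in double KO hearts, against 18.4, 26.9 and 9.44 CPM in single KO hearts (-0.93, SE 0.32, edgeR adjusted p = 0.519). The double KO hearts and single KO replicate 3 were alike, and single KO replicates 1 and 2 stood high. Mcm3 was at 11.9, 7.62 and 14.2 CPM in double KO hearts, against 19.5, 19.1 and 12.4 CPM in single KO hearts (-0.60, SE 0.26, edgeR adjusted p = 0.671). Mcm6 was at 17.3, 10.8 and 12.8 CPM in double KO hearts, against 18.1, 22.5 and 13.3 CPM in single KO hearts (-0.40, SE 0.24, edgeR adjusted p = 0.797). Mcm7 was at 20.7, 12.2 and 16.5 CPM in double KO hearts, against 22.4, 29.7 and 17.8 CPM in single KO hearts (-0.50, SE 0.24, edgeR adjusted p = 0.714).

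Single KO replicates 1 and 2 carried Y-linked transcripts and no other heart of the second table did, so presence of these transcripts moves with the high MCM values. With the single KO group reduced to replicate 3, a lone library assumed to vary like the others, the log2 fold changes shrank to -0.31 for Mcm2, -0.32 for Mcm4, -0.15 for Mcm3 and -0.12 for Mcm7, and were 0.02 for Mcm5 and 0.03 for Mcm6. Mki67 was at 15.4, 3.48 and 7.29 CPM in double KO hearts, against 39.2, 45.5 and 12.2 CPM in single KO hearts (-1.89, SE 0.55, edgeR adjusted p = 0.404), with the same pair of hearts high. Cdt1 was at 5.15, 3.73 and 6.48 CPM in double KO hearts, against 11.4, 12.4 and 4.49 CPM in single KO hearts (-0.88, SE 0.37, edgeR adjusted p = 0.654). Lig1 and Pole changed by less, at -0.57 and -0.44, and neither was called (edgeR adjusted p = 0.702 and 0.792). Endothelial markers summed to 879 to 1034 CPM in double KO hearts and 1169 to 1290 CPM in single KO hearts, and red blood cell markers to 4555 to 7763 CPM in double KO hearts and 8129 to 10042 CPM in single KO hearts, each without overlap. Atrial markers went the other way without overlap, with sums of 9.05 to 1434 CPM in double KO hearts and 2.93 to 3.58 CPM in single KO hearts. All 7 fibroblast and all 7 macrophage markers had log2 fold changes above 0, with medians of 0.34 and 0.42, and their sums overlapped between groups. Their part in the MCM values was not tested.

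Of the 119 other replication and cell cycle genes tested in the second table, 96 were below 0 and 0 were called by edgeR. DESeq2 called 3 of them, beside 113 of all genes, and limma-voom called 0. An unadjusted edgeR p under 0.05 was found for 30 of them, beside 7.25% of all genes. By list, these were 16 of 22 mitotic genes, 5 of 26 G1/S genes, 3 of 11 histone genes and 2 of 7 deoxynucleotide genes. The rest were 2 of 11 helicase activation genes, 1 of 8 loading factors and 1 of 30 fork genes. MCM relatives had 0 of 4. The median log2 fold change was -0.08 for the loading factors, -0.28 for the MCM relatives, -0.33 for helicase activation, -0.28 for the fork, -0.31 for deoxynucleotide supply, -0.25 for E2F, RB and G1/S control, -1.75 for mitosis and -0.18 for histones. All 22 mitotic genes were below 0, by more at the median than the MCM genes. Per kb, Mcm2 was the highest of the 6 in both groups, at 4.39 ± 0.553 CPM per kb in double KO hearts and 7.07 ± 2.36 in single KO hearts (SD, n = 3 each), and Mcm7 the next, at 3.72 ± 0.969 in double KO hearts and 5.26 ± 1.35 in single KO hearts. Mcm2 and Mcm7 lay within their spread in both groups. Within libraries, Mcm2 was above Mcm7 in all 3 single KO hearts and in double KO replicates 2 and 3, but below it in double KO replicate 1.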

How the data were processed

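Total RNA of 16 mouse hearts was sequenced from stranded, ribosomal RNA depleted libraries, per the labels' protocols. Reads were aligned with HISAT2 to mm10, and DESeq2 1.42.0 was used, per the submitters' processing notes. The authors deposited raw read counts per gene in 2 tables; which program counted them, and with which strand setting, no source used here says. The quasi-likelihood test of edgeR 4.0.16 (R 4.3.3, filterByExpr, TMM scaling) was run on the counts within each table over all genes that passed, with Benjamini-Hochberg adjustment and a threshold of 0.05, and checked on simulated counts. CPM use TMM-scaled totals, SE is the log2 fold change over the square root of F, and lengths are merged GENCODE M21 exons. Groups were read from titles; the labels call replicates biological but name no litters, so p-values measure the spread between these hearts. In each pathway list the 3 genes with the smallest p in CPT2H-KO against wild type were named. The genes and lists were chosen with earlier results of these data known. Alternatives were 2 scalings, no filter, DESeq2 1.42.0, limma-voom (limma 3.58.1), a replicate block, atrial, fibroblast and Y-linked terms and the removal of each library. The check of whether replicate numbers pair hearts found correlations of deviations from -0.09 to 0.23 in the first table and -0.21 to 0.17 in the second, so the numbers were not used as pairs.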

Additional observations from a re-analysis of the deposited data

Results flagged for a closer look

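Of 80 groups of 5 hearts examined for a library far from the rest, 4 had one, where chance alone gives about 1 in 20. Mcm6 was lowest in wild type replicate 3, at 4.34 CPM. Mki67 was highest in wild type replicate 5, at 17.8 CPM, as was Ccnb1, at 0.826 CPM. Cpt2 was lowest in CPT2H-KO replicate 1, at 30.4 CPM.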

How the results depend on the processing

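In CPT2H-KO against wild type, 4758 genes were called, against 3103 with the atrial covariate and 1488 with the fibroblast covariate; both covariates left 3 of the 6 MCM genes called. Library totals as the only scaling lowered log2 fold changes by a median of 0.26, left 4 MCM genes called, and turned Usp30 to -0.0853 and Prkdc to -0.0421. The replicate block left 4179 genes and 5 MCM genes called, without Mcm4. Removing 1 heart at a time left 5 to 6. Mki67 and Top2a turned to -0.176 and -0.0187 with the atrial covariate and to -0.365 and -0.232 with only CPT2H-KO hearts with atrial transcripts, an alternative added after seeing the data. Pcna turned to 0.0249 with the fibroblast covariate and ranged from -0.109 to 0.0147 without 1 heart.

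In double against single KO, 0 MCM genes were called in any of 17 alternatives. The count over all genes was 113 with DESeq2, 105 with the atrial covariate, 3 with the fibroblast covariate, 1 with the replicate block, 36 with only double KO hearts without atrial transcripts (also added) and 0 to 114 without 1 heart (114 without double KO replicate 1). Mcm6 turned to 0.0428 with the atrial covariate. A Y-linked term gave 0.024 for Mcm5, 0.0404 for Mcm6, 0.189 for Cdt1, 0.115 for Lig1 and 0.0568 for Pole. With single KO replicate 3 alone (added), Mcm5 was at 0.0164, Mcm6 0.0326, Cdt1 0.181, Lig1 0.107 and Pole 0.0489. Cpt2 ranged from -0.0184 to 0.0656 without 1 heart. The causes were not tested.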
